A study of Homo sapiens with 2 samples.

Results

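A set of 9 genes of the KEAP1/NRF2 antioxidant pathway and of thiol redox control was examined in A549 cells held in static culture or under mechanical stretch for 4 h. The genes were KEAP1, OSGIN1, SRXN1, TXNRD1, TXN, PRDX1, GSR, GPX2 and HMOX1. They were taken by symbol from 14884 genes named on the array, and all 9 were measured, each by 1 probe set. All 9 also lay above the level filter described below, which 10981 genes passed. A549 is an established epithelial line from a human lung adenocarcinoma. The static group was 1 array of A549 RNA after 4 h without stretch, and the stretch group was 1 array of A549 RNA after 4 h of stretch. The source names of both samples give A549, while the title of the stretched sample spells the line A594, and the extraction and labelling protocols are the same for both. How the cells were stretched, and how many cultures gave each RNA, was not given in the sources used here. With 1 array per condition no difference has a replicate check, so no error, p-value or test is given, and the number of arrays limits the precision.

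KEAP1 is the adaptor through which a CUL3 ubiquitin ligase marks the transcription factor NRF2 (gene NFE2L2) for destruction. Oxidants and electrophiles modify cysteines of KEAP1, NRF2 then accumulates, pairs with a small MAF protein and binds antioxidant response elements at genes of glutathione, thioredoxin and NADPH metabolism. A549 is known for a loss-of-function change in KEAP1 and for NRF2 that is active without an added stress, so that this programme is already on in unstretched cells.

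The members were split in direction. KEAP1, OSGIN1, SRXN1 and TXNRD1 stood at least 2-fold higher on the stretched array. HMOX1 stood at least 2-fold lower. GSR, PRDX1, TXN and GPX2 differed by less than 1.5-fold. Thus 4 of 9 (44.4%) passed 1.5-fold upward and 1 of 9 (11.1%) passed it downward, against 27.7% and 8.90% of the 10981 named genes past the level filter. The same 4 and 1 members passed 2-fold, where the shares of all genes were 12.3% higher and 2.50% lower. The median difference (log2, stretch minus static, as throughout) was 0.53 for the members and 0.20 for all genes past the filter. All 9 members also reached 4.24, the upper quartile of all values, on at least 1 array. Among the 6612 genes that did so, 38.9% passed 1.5-fold upward and 5.64% downward. At 2-fold these shares were 18.3% and 2.39%, and the median difference was 0.41. Part of the contrast with all genes thus goes with signal level. With 9 members chosen with earlier results of these data known, the counts are a description and show nothing particular to the set.

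**Figure D1:**
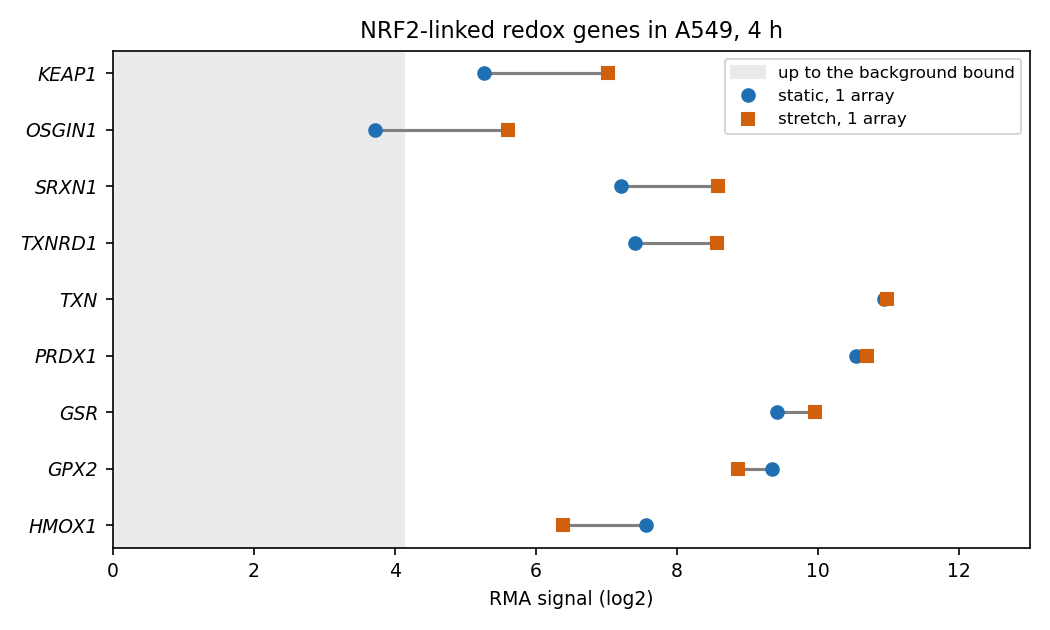
RMA signal (log2) of the 9 genes on the static array (circles) and the stretched array (squares), with a line joining the 2 values of a gene; the grey area ends at 4.14, the background bound (95th percentile of unrelated tissue genes). KEAP1, OSGIN1, SRXN1 and TXNRD1 lie to the right under stretch, HMOX1 and GPX2 to the left, and the values of TXN and PRDX1 nearly coincide.

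A sequence view shows which members with a promoter window hold letters that match the core of an antioxidant response element near a start site. RefSeq promoter windows (GRCh38.p14, 250 bases before to 50 after a start) were matched for 6 of the 9 members, KEAP1, TXNRD1, SRXN1, OSGIN1, TXN and GPX2, with 2 starts each for KEAP1 and TXNRD1. On both strands they were searched for the core of the element, TGACNNNGC, for its variant TGAGNNNGC, and for TGACTCA, the AP-1 site, which can overlap the variant. Of 35116 windows in the table, 13.3% held TGACNNNGC, 18.3% held TGAGNNNGC and 4.95% held TGACTCA. The stretches below are those of the members whose windows held the core or the AP-1 site before the start, printed 5′ to 3′ on the strand of the gene, with the match in capitals (a match on the opposite strand reads as its reverse complement).
TXNRD1, first start, chr12:104215654-104215714, plus strand: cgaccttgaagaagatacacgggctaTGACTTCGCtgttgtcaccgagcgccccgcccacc
TXNRD1, second start, chr12:104286904-104286964, plus strand: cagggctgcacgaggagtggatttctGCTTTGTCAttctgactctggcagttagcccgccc
OSGIN1, chr16:83953115-83953175, plus strand: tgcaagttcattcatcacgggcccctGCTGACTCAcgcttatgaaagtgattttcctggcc
GPX2, chr14:64942833-64942893, minus strand: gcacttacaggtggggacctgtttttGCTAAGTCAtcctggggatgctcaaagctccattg
KEAP1, second start, chr19:10502807-10502835, minus strand: acttttattgTGACACGGCgggcgcccgg
KEAP1, second start, chr19:10502784-10502812, minus strand: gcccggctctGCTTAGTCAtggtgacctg

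The capitals span bases -99 to -91 and -102 to -94 from the first and second start of TXNRD1, -99 to -91 in OSGIN1, -122 to -114 in GPX2, and -54 to -46 and -31 to -23 in KEAP1. In OSGIN1 the capitals hold the variant on the opposite strand and, within it, the AP-1 site on the gene's strand. Other matches are not printed above. The variant also lay at -203 to -195 from the second start of KEAP1 and at -198 to -190 from the second start of TXNRD1. A further core lay at -8 to 1, across the first start of TXNRD1. The windows of SRXN1 and TXN and the first window of KEAP1 held none of the 3 motifs, which says only that these letters are not in these windows. Of the members with windows, TXNRD1, OSGIN1 and KEAP1, with matches, were at least 2-fold higher under stretch, SRXN1, without one, was too, and GPX2, with the core, stood at -0.49. HMOX1, the member past 1.5-fold downward, had no window and is not in this comparison. A match is a description of the letters and not evidence of binding.

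KEAP1, the sensor and repressor of the pathway, read 5.26 on the static array and 7.02 on the stretched one (probe set 16868743). The stretched value was higher by 1.76, or 3.39-fold, and both values lay above 4.14. This background bound is the 95th percentile of the signals of 26 genes of unrelated tissues, of which FGB (7.45 and 7.04) and PRM2 (4.23 and 4.06) exceed it on at least 1 array. KEAP1 ranked 222nd from the highest of the 10981 genes. Signals and differences depend on level on these arrays, so the genes past the filter were divided into 10 equal bins of mean signal and each member was read against its own bin. In the bin that holds KEAP1, 20.5% of 1095 genes were at least 2-fold higher and 4.47% differed by as much as KEAP1 or more. NFE2L2, which encodes NRF2 itself, read 7.23 and 7.30, a difference of 0.07. The differences of KEAP1 and NFE2L2 were 1.69 apart, and 1.61 to 1.69 apart over the 5 scalings. Centring on array medians or on reference genes shifts every gene alike. Here and below, only quantile normalization and loess can therefore change a gap between genes. The KEAP1 transcript thus stood higher relative to that of NFE2L2, on 1 pair of arrays. A549 is known for a loss-of-function change in KEAP1, so this gap is not a measure of repression of NRF2. The array measures RNA, so it does not show KEAP1 or NRF2 protein or the activity of either.

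OSGIN1, an oxidative stress-induced growth inhibitor and NRF2 target, had the highest difference of the set. It read 3.72 without and 5.60 with stretch (probe set 16821414), higher by 1.88, or 3.68-fold. Its static value lay under the background bound, so the size of its fold is the least firm among the members. In its bin, 18.3% of genes were at least 2-fold higher and 2.64% differed by as much or more. Its promoter stretch above is the only one among the members' windows with the AP-1 site.

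SRXN1 encodes sulfiredoxin, which repairs overoxidised peroxiredoxins. It read 7.21 and 8.58 (probe set 16916352), higher by 1.37 or 2.58-fold under stretch. TXNRD1, the cytosolic selenoprotein that reduces thioredoxin with NADPH, read 7.41 and 8.56 (probe set 16756163), higher by 1.15 or 2.22-fold. Both belong to the brightest bin, where 9.23% were at least 2-fold higher. In that bin 3.38% differed by as much as SRXN1 or more, and 6.58% by as much as TXNRD1 or more. These were the members that combined a bright signal on both arrays with a difference past 2-fold upward.

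The members TXN and PRDX1, which encode proteins on which these enzymes act, gave nearly the same signal on both arrays. TXN, thioredoxin, the substrate of TXNRD1, read 10.94 and 10.97 (probe set 17097052), a difference of 0.03. PRDX1, a peroxiredoxin that sulfiredoxin reactivates, read 10.53 and 10.70 (probe set 16686472), a difference of 0.17. The other measured peroxiredoxins were less even. PRDX4 stood at 0.55, PRDX6 at 0.29, PRDX3 at -0.21 and PRDX2 at -0.55, PRDX2 under the background bound on both arrays. The difference of TXNRD1 exceeded that of TXN by 1.12 (0.98 to 1.12 over the 5 scalings), and that of SRXN1 exceeded that of PRDX1 by 1.20 (1.07 to 1.20). The signs of TXN and PRDX1 were not stable: both were at or just below 0 after quantile normalization and loess, and stood at -0.44 and -0.30 after centring on reference genes.

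The glutathione arm was also unequal. GSR, glutathione reductase, which restores reduced glutathione, read 9.42 and 9.95 (probe set 17076063), a difference of 0.53 that lay just under 1.5-fold. GPX2, an epithelial glutathione peroxidase that uses reduced glutathione to remove peroxides, read 9.35 and 8.86 (probe set 16793877), a difference of -0.49. GSR thus exceeded GPX2 by 1.02 in its difference, and by 1.02 to 1.07 over the 5 scalings. GPX2 passed 1.5-fold downward under 3 of the 4 other scalings (-0.70 after quantile normalization, -0.73 after loess and -0.96 after centring on reference genes). GSR passed 1.5-fold upward under 1 of them, centring on the array medians (0.63), and stood at 0.06 after centring on reference genes. In the brightest bin 6.67% of genes were as low as GPX2 or lower.

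HMOX1, heme oxygenase 1, which degrades heme to biliverdin, iron and carbon monoxide, lay in the opposite direction to OSGIN1, SRXN1 and TXNRD1. It read 7.56 without and 6.38 with stretch (probe set 16929562), lower by 2.27-fold, a difference of -1.18. Both values lay above the background bound. It ranked 153rd from the lowest of the 10981 genes, and in its bin 1.82% of genes were at least 2-fold lower and 1.09% were as low or lower. The gap between OSGIN1 and HMOX1 was 3.06, equal to an 8.34-fold shift of one signal relative to the other. The gap between TXNRD1 and HMOX1 was 2.33. Quantile normalization and loess made neither gap smaller, and the centrings cannot change a gap. HMOX2, the constitutive heme oxygenase, read 4.02 and 4.62 (0.60), its static value under the background bound. BLVRA, the biliverdin reductase that acts on the product of heme oxygenase, read 7.37 and 6.89 (-0.48). BLVRB, which shares the name but is not taken here as a step after HMOX1, read 8.96 and 9.34. Its difference was 0.38, and below 0 after centring on reference genes.

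**Figure D2:**
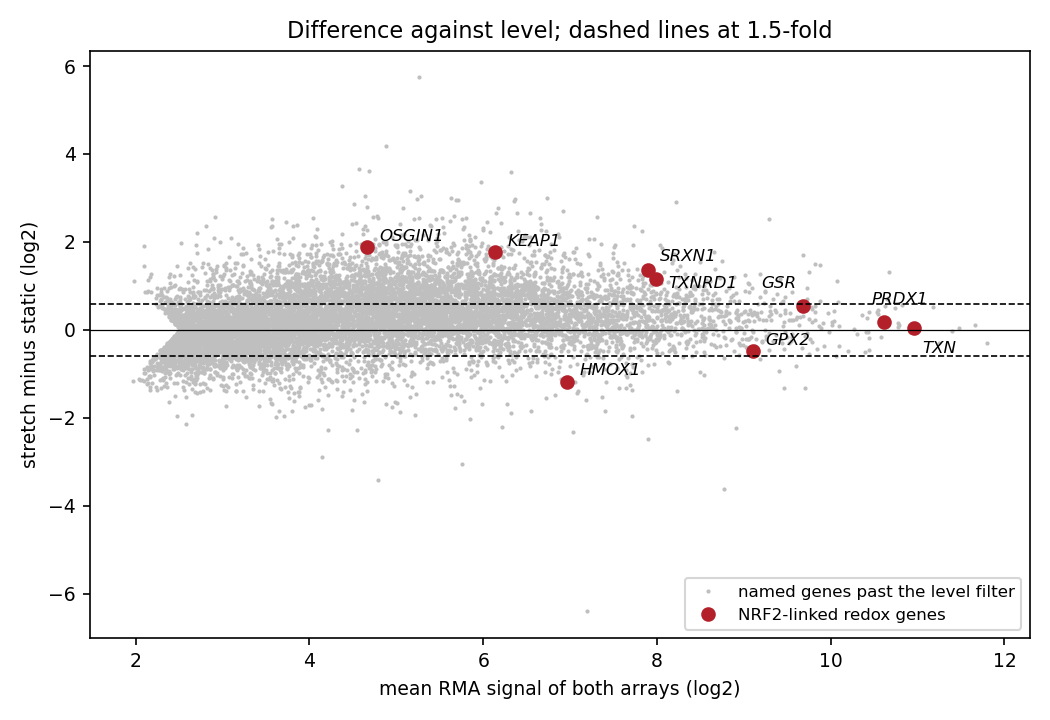
Difference between the arrays (stretch minus static, log2) against the mean signal of both arrays (log2) for the 10981 named genes past the level filter (grey) and the 9 members (red, labelled); dashed lines mark 1.5-fold. OSGIN1 and KEAP1 lie high in the middle of the range, SRXN1 and TXNRD1 above the line at bright signals, HMOX1 below the lower line, and the 4 brightest members between the lines.

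The scaling of the arrays bears on these counts. The deposited columns were not on a shared distribution (medians 2.57 static and 2.47 stretched), and more genes stood higher than lower: 75.7% of the genes past 1.5-fold were higher. That share was 83.9% after centring on the array medians, 60.7% after loess, 54.0% after quantile normalization and 25.4% after centring on 17 reference genes. The median difference of all genes was 0.31, 0.05, 0.00 and -0.30 in the same order. The 17 reference genes were not level themselves. Of them, 6 stood at least 1.5-fold higher and 0 lower, from -0.57 for REEP5 to 1.72 for PPIA. KEAP1, OSGIN1, SRXN1, TXNRD1 and HMOX1 kept their direction and stayed past 1.5-fold under all 4 scalings. KEAP1, OSGIN1 and HMOX1 also stayed past 2-fold under all 4, SRXN1 under 3 and TXNRD1 under 1. The lowest values were 1.29 for KEAP1, 1.41 for OSGIN1, 0.90 for SRXN1 and 0.68 for TXNRD1, all after centring on reference genes, and HMOX1 ranged from -1.65 to -1.08. After centring on reference genes, 10.4% of all genes and 4 of the 9 members passed 1.5-fold upward, and 30.5% of all genes and 2 of the 9 members, HMOX1 and GPX2, passed it downward.

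**Figure D3:**
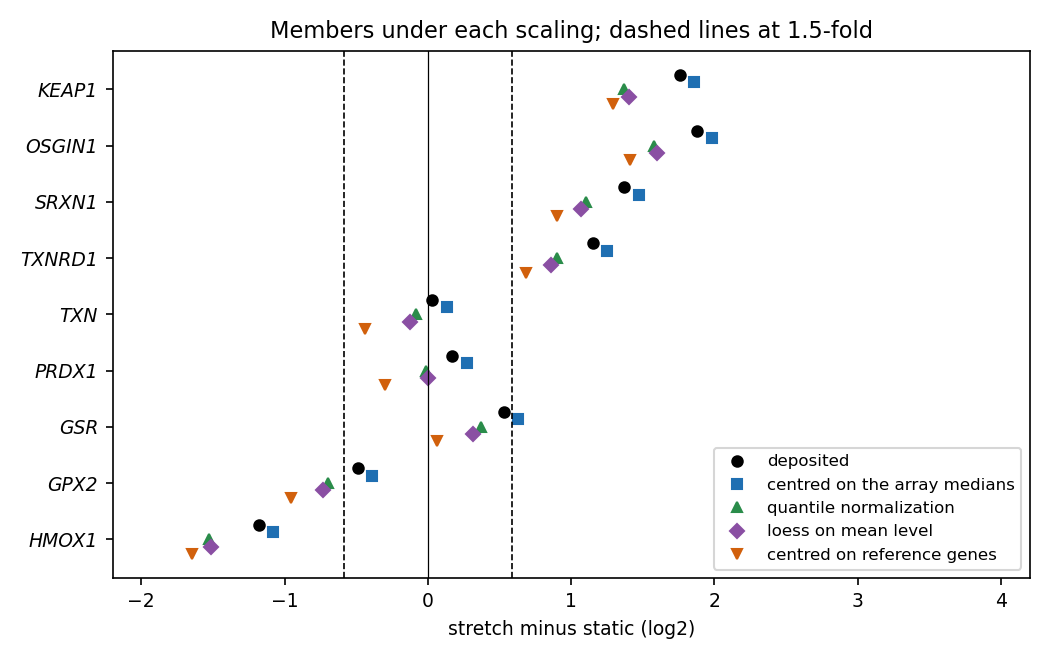
Difference (stretch minus static, log2) of each member as deposited and under 4 other scalings, each a marker of its own; dashed lines mark 1.5-fold. The markers of KEAP1, OSGIN1, SRXN1 and TXNRD1 all lie right of the upper line and those of HMOX1 all left of the lower line, while TXN and PRDX1 have markers on both sides of 0.

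Regulators of NRF2 other than KEAP1 were mostly near the median of all genes. Of 22 listed, 15 were measured, 4 passed 1.5-fold upward, 0 passed it downward and 11 lay between, and the median was 0.13. For this list and those below, the shares of all genes past the filter were 27.7% higher and 8.90% lower. DPP3, which binds KEAP1 and competes with NRF2, read 4.00 and 6.17 (2.17), its static value under the background bound. SQSTM1, the autophagy receptor p62 that draws KEAP1 away from NRF2 and is itself an NRF2 target, read 6.21 and 7.34 (1.13). NFE2L1, the NRF2 relative that drives proteasome genes, read 6.45 and 7.50 (1.05), and the small MAF partner MAFG read 4.27 and 4.98 (0.71). MAFF, another small MAF, stood at 0.13 under the background bound. CUL3, the scaffold of the KEAP1 ligase, read 7.03 and 7.23 (0.20). The coactivators CREBBP and EP300 stood at 0.22 and 0.29, and CHD6 at 0.10. PALB2 (-0.13) and AMER1 (-0.20) contain KEAP1-binding sequences, and AMER1 lay under the background bound. The kinase GSK3B (-0.22) and the ubiquitin ligase adaptors BTRC (-0.14) and FBXW11 (0.11), which form a route of NRF2 turnover apart from KEAP1, differed little. After centring on reference genes, the 11 regulators under 1.5-fold all stood below 0. AMER1 (-0.67), PALB2 (-0.60), BTRC (-0.61) and GSK3B (-0.69) passed 1.5-fold downward there. DPP3 (1.70) and SQSTM1 (0.66) stayed past it upward, and NFE2L1 (0.58) and MAFG (0.24) did not.

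The wider thioredoxin system was mixed. Of 28 listed genes, 23 were measured, 6 passed 1.5-fold upward and 2 downward, and the median was 0.13. TXN2, the mitochondrial thioredoxin, read 4.42 and 6.08 (1.66), in contrast to TXN. NXN, nucleoredoxin, read 3.78 and 5.18 (1.40), TXNRD3, a thioredoxin reductase related to TXNRD1, read 3.25 and 4.32 (1.07), and MSRA, a methionine sulfoxide reductase, read 3.59 and 4.60 (1.01). All 3 static values lay under the background bound. At the other end, SEPHS2, which makes the selenium donor for selenoproteins, read 6.99 and 6.26 (-0.73), and TXNIP, the thioredoxin inhibitor, read 2.62 and 2.02 (-0.60), under the background bound on both arrays.

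The measured genes of glutathione synthesis and use lay mostly under 1.5-fold. Most of them use glutathione, and of its synthesis enzymes the measured rows hold GSS, glutathione synthetase (6.55 and 6.90, 0.35). The list therefore says little about synthesis. Of 34 listed, 21 passed the level filter, and 19 of these lay under 1.5-fold, against 63.4% of all genes past the filter. Of the 21, 6 lay under the background bound on both arrays. GLRX3, a glutaredoxin of iron-sulfur handling, read 6.14 and 7.11 (0.97), and GSTA4, a transferase for lipid aldehydes, read 5.78 and 4.92 (-0.86). The median was 0.09. GSTP1, a bright transferase, read 9.84 and 9.99, and GPX4, the phospholipid hydroperoxidase, read 8.34 and 8.22. GSTP1 and GPX4 were picked with their values in view.

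A list of NADPH supply and pentose phosphate pathway genes held 17, of which 9 were measured. Not all of them form NADPH, the reductant used by TXNRD1 and GSR. Of the 9, 4 stood at least 1.5-fold higher and 0 stood at least 1.5-fold lower. NNT stood at -0.33, and the median was 0.57. RPIA, of the pentose phosphate pathway, read 3.51 and 5.10 (1.59), from a static value under the background bound. PGD, the NADPH-forming phosphogluconate dehydrogenase, read 9.25 and 10.20 (0.95). The mitochondrial NAD kinase NADK2 stood at 0.67 and TALDO1, transaldolase, at 0.64. After centring on reference genes RPIA (1.12) stayed past 1.5-fold upward, and PGD (0.48), NADK2 (0.20) and TALDO1 (0.17) did not. NNT (-0.80) passed it downward there.

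Only 6 of 27 listed quinone and carbonyl reductases and related NRF2 targets were measured, of which 3 were at least 1.5-fold higher and 1 lower. CBR3 (1.06, static value under the background bound) and CBR1 (0.74) are carbonyl reductases. The gene with the highest difference was not a reductase: ABHD4, a lipid hydrolase, read 5.38 and 7.92 (2.54). CES1, a carboxylesterase, read 8.0 and 6.82 (-1.18), equal to the difference of HMOX1, but its second, dimmer probe set stood at 0.26, so its probe sets disagreed.

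Of 15 listed genes of heme and iron, 6 were measured, and the median was 0.65. Of the 6, 4 (66.7%) passed 1.5-fold upward and 0 downward, against 27.7% and 8.90% of all genes. FLVCR1, a transporter first known as a heme exporter, read 5.96 and 7.36 (1.40). FECH, which inserts iron to make heme, read 5.57 and 6.57 (1.0), and NCOA4, the receptor for ferritin turnover, read 7.68 and 8.37 (0.69). HMOX2 was the fourth. After centring on reference genes FLVCR1 (0.93) stayed past 1.5-fold upward, and FECH (0.53), NCOA4 (0.22) and HMOX2 (0.13) did not. BLVRA (-0.95) passed it downward there. FECH and FLVCR1, of heme synthesis and transport, thus differed in the opposite direction to HMOX1.

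Superoxide, peroxide and metal-buffering genes had a median of 0.35 over 15 genes past the filter (24 listed), with 5 past 1.5-fold upward and 2 downward. SESN2, a stress-induced leucine sensor and NRF2 and ATF4 target, read 3.53 and 5.70 (2.17), from a static value under the background bound, while its relatives SESN1 (-0.60) and SESN3 (-0.59) were lower, SESN3 under the background bound. MT1X, a metallothionein that belongs to a family of near-identical copies, stood at 0.93. XDH, xanthine dehydrogenase (0.86), lay under the background bound on both arrays. CCS, the copper chaperone of superoxide dismutase, and OXR1 both stood at 0.62 from static values under the bound, and the second probe set of OXR1 stood at -0.69.

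A further list held 11 AP-1, KLF, heat shock and ATF4 factors known to act on HMOX1 or OSGIN1. Of the 9 measured, 4 passed 1.5-fold upward and 1 downward, and the median was 0.55. FOSL1 (1.96), JUN (1.53), ATF4 (1.03) and JUND (0.59) were higher, and FOS read 7.33 and 5.11 (-2.22), with a second probe set at -1.52. The part of these factors in the values of the members was not tested.

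Over all 8 lists, 104 of 178 listed genes passed the level filter. Of these, 31 (29.8%) stood at least 1.5-fold higher and 7 (6.73%) lower, close to the 27.7% and 8.90% of all genes, and their median of 0.19 was close to 0.20. Shares this near to those of all genes are no result about the wider pathway.

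**Figure D4:**
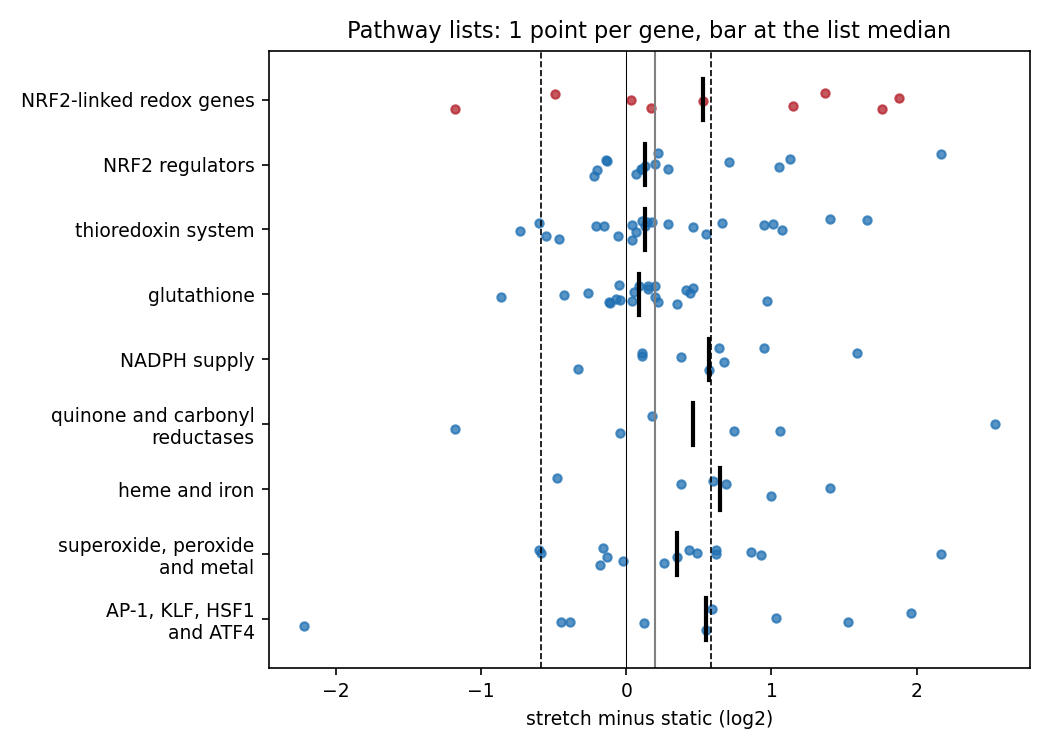
Difference (stretch minus static, log2) of every gene past the level filter in the member set (red) and in 8 related lists (blue), 1 point per gene, with a bar at each list's median, a grey line at the median of all genes (0.20) and dashed lines at 1.5-fold. The glutathione genes cluster around 0.09, and points of the other lists reach from -2.22 for FOS to 2.54 for ABHD4.

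For the 5 members past 2-fold, the named genes with the nearest pair of values were looked up (distance over the static and stretched log2 values, 2 arrays). For KEAP1 these were S100A3, BMERB1 and L3HYPDH, with differences of 1.75, 1.75 and 1.84. For OSGIN1 they were NCR3LG1 (1.85), TMED8 (1.94) and ZNF518A (1.87). SRXN1 lay nearest to HNRNPM, HJURP and NOMO1, with differences from 1.23 to 1.31, and TXNRD1 to CD68 (1.07), RBM12 (1.03) and MYO1C (1.01). HMOX1 lay nearest to SOX9 (-1.17), IRF2 (-1.24) and the microRNA gene MIR375 (-1.11). Likeness over 2 arrays is a description of these values alone.

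As a check of the labelled line, the keratins KRT18 (10.29 and 11.00), KRT7 (5.41 and 7.56) and KRT8 (4.60 and 5.47) and EPCAM (5.30 and 4.71) gave signal on both arrays. Of 11 measured epithelial and lung markers, 7 lay under the background bound on both arrays. These were the epithelial genes KRT19 and CLDN4 and the lung genes SFTPC, SFTPB, SFTPA1, NAPSA and NKX2-1. Of 6 measured markers of other cell types, 4 lay under it, including PECAM1, VWF and DCN, and CD68 and CD14, chosen as myeloid markers, did not. CD68 read 7.51 and 8.58 and CD14 5.13 and 5.53. RMA values have no true zero, so no marker is listed at 0. The summed log2 signal of the 6 markers came to 21.4 without and 21.8 with stretch, and their part in the members' values was not tested.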

How the data were processed

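A549 RNA from 1 static and 1 stretched culture condition was measured on Affymetrix arrays, and groups were taken from the source names. The deposited values, on a log2 scale, cover 53617 probe sets. Per the submitters' processing notes the authors made them with RMA, a method that corrects background, normalizes and summarises probes; the program used and the chip definition file are not given in the sources used here. Its values run from 0.60 to 12.7, and the sorted columns differ by up to 0.45, so the normalization between the 2 arrays is unknown. GEO's platform annotation gave 1 symbol to 16098 probe sets, all matched by gene ID to RefSeq, and none to 37519 here. Each gene was represented by its probe set of highest mean signal. The level filter asked that a gene reach 2.52, the overall median, on at least 1 array. A fold is 2 raised to the log2 difference; members were counted at 1.5-fold (0.585) and 2-fold. The background bound, 4.14, is the 95th percentile of 26 measured genes of unrelated tissues (50 listed). These genes also gave the scale for alternatives, a robust SD of differences of 0.30. Alternatives were 4 scalings (array medians, quantile, loess of span 0.3, and 17 of 30 reference genes), 2 probe set summaries, level filters and fold thresholds. The routines were tested on simulated data. The named genes are the members, all measured regulators of NRF2, up to 4 genes per list and direction past 1.5-fold, and the 3 nearest genes of each member past 2-fold. Promoter windows and motif matches come from RefSeq (GRCh38.p14). Members and lists were chosen with earlier results of these data known. Calculations used Python 3.11.15, numpy 2.4.6, pandas 2.3.3 and statsmodels 0.14.6.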

Additional observations from a re-analysis of the deposited data

How the results depend on the processing

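No paired analysis was possible because each condition has 1 array. The count of members at least 1.5-fold higher stayed between 4 and 5 under every alternative run. The count of members at least 1.5-fold lower was 1 as deposited and 2 after quantile normalization, after loess, after centring on reference genes and at the looser of the fold thresholds, where GPX2 joined HMOX1. The median difference of the members fell from 0.53 to 0.061 after centring on reference genes, which lowers every difference by 0.47. The probe set summaries could not move a member, since each has 1 probe set. Over the 8 related lists, genes at least 1.5-fold higher numbered 31 as deposited, 20 after quantile normalization and 12 after centring on reference genes. Genes lower numbered 7 as deposited, 4 after centring on array medians, 12 after quantile normalization, 11 after loess and 25 after centring on reference genes. No member past 1.5-fold changed sign. The static value of OSGIN1 lay under the background bound, so the size of its fold is less firm than that of the other members past 1.5-fold.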
